A study of Mus musculus with 15 samples.

Results

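The genes described here are 35 components of growth factor receptor and PI3K-Akt signalling: receptor tyrosine kinases, the docking adaptors that they phosphorylate, class IA phosphoinositide 3-kinase (PI3K) subunits, lipid and protein phosphatases, Akt and its neighbours, the mTOR complexes and targets of the pathway. They were chosen by name, with earlier results of these data known. Each was read from the probe sets assigned to its symbol alone, taking the probe set with the highest mean over all arrays. By that rule 34 of the 35 genes were measured among 19937 genes in all, and Rps6kb1 was not analysed here. The study profiled 15 Affymetrix arrays of mouse 4T1 cells, a mammary carcinoma line, with 3 arrays for each of 5 lines. The labels do not say whether the 3 arrays of a line came from separate cultures, so p-values measure only the spread between those arrays.

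Twist1 is a transcription factor of the basic helix-loop-helix class, and the question addressed by the design is how its responsive genes depend on serine 42, a residue that Akt phosphorylates. The S42D line had its endogenous Twist1 depleted and carried Twist1 with aspartate at residue 42, a substitution that mimics phosphoserine. Its title gives that identity, whereas its genotype label names both the alanine and the aspartate change. The S42A line was the same depleted line carrying Twist1 with alanine, which cannot be phosphorylated at that position, and the wild-type Twist1 line carried the unmutated protein. Tw1KD was the depleted line itself, and parental 4T1 cells were the common control. All lines were grown in DMEM to 70% confluency. The medium is described with puromycin at 4 µg/ml and G418 at 800 µg/ml, with no separate statement for parental cells. How endogenous Twist1 was depleted, how the constructs were introduced, and whether each line was a clone or a pool are not given in the sources used here.

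Growth factor receptors such as the insulin, IGF1, EGF and HGF receptors phosphorylate themselves and docking adaptors on tyrosine, and the regulatory subunits of class IA PI3K bind those tyrosines and bring the catalytic subunits to the membrane. The lipid that PI3K makes recruits Akt, which is then phosphorylated by Pdpk1 and by the mTOR complex that holds Rictor. Akt phosphorylates many proteins, among them Tsc2, Gsk3b and the FoxO transcription factors, and the mTOR complex that holds Rptor controls protein synthesis. Much of this regulation acts on proteins and lipids. The arrays measured only RNA, and a lower signal in a bulk sample cannot tell fewer expressing cells from less RNA per cell.

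Twist1 itself, read as the check of the labels, had log2 intensities of 9.07, 8.96 and 8.97 in the S42D line, 8.60, 8.71 and 8.80 in the S42A line, 8.35, 8.49 and 8.16 with wild-type Twist1, 7.47, 7.23 and 7.35 in Tw1KD and 9.01, 9.03 and 9.07 in parental cells. The Tw1KD arrays were the lowest and overlapped no other line. Twist1 fell by 1.69 ± 0.080 log2 in Tw1KD against parental cells (SE; limma, adjusted p = 7.1e-10). The signal also differed among the re-expressing lines: it was 0.67 ± 0.080 log2 higher in S42D than in wild-type Twist1 cells (adjusted p = 6.2e-06) and 0.37 ± 0.080 log2 higher in S42A than in wild-type Twist1 cells (adjusted p = 0.0016). S42D exceeded S42A by 0.29 ± 0.080 log2 (adjusted p = 0.0089), also with no overlap. Every contrast between 2 of the Twist1 forms below is also a contrast between 2 derived lines. The residue, the amount of Twist1 RNA and any other difference between those lines cannot be told apart.

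Correlations between arrays over all probe sets ran from 0.993 to 0.997 within lines and from 0.976 to 0.988 between lines. Differences are given as log2 intensity with the standard error of a limma fit over all 15 arrays, and a gene was called at an adjusted p below 0.05 over all genes. The lines differed widely: from 36.1% to 48.0% of all genes were called in each of the 7 main comparisons, so a call alone says little about one pathway. The epithelial keratins Krt8 and Krt18 averaged between 12.31 and 13.18 in every line. Of 10 epithelial markers, 5 averaged at least 8 log2 in S42D, 3 in S42A, 7 in wild-type Twist1, 9 in Tw1KD and 9 in parental cells, and their summed linear intensity was 20350 to 20808, 16933 to 17135, 17543 to 18057, 32076 to 33486 and 22446 to 23745 in those lines. Of 9 fibroblast markers, 3 (Dcn, Pdgfra and Pdgfrb) were called lower in Tw1KD than in parental cells and higher in S42D than in Tw1KD, with Pdgfrb 4.19 ± 0.076 log2 higher in S42D than in Tw1KD. The other 6 of the list, collagen genes among them, were called in neither comparison. The list's median differences there were -0.07 and -0.02 log2. The summed linear intensity of that list was 4657 to 4990 in S42D, 2574 to 2700 in S42A, 1747 to 1799 in wild-type Twist1, 1465 to 1627 in Tw1KD and 3513 to 3693 in parental cells. Such sums weigh the brightest genes most, here Krt8 and Krt18 among the epithelial markers and Pdgfra and Pdgfrb among the fibroblast markers of S42D. The part of the shifts in these epithelial and fibroblast markers in the results was not tested.

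Most of the pathway's genes differed between lines, and in both directions. In Tw1KD against parental cells 10 members rose and 13 fell, where 36.3% of all genes were called, 19.9% higher and 16.4% lower. In wild-type Twist1 against Tw1KD 7 rose and 17 fell, where 48.0% of all genes were called, 23.5% higher and 24.5% lower. For the mutants the counts were more even. The S42A line had 15 members up and 15 down against Tw1KD, beside 42.5% of all genes called, 22.8% higher and 19.7% lower. In S42D against Tw1KD 15 rose and 14 fell, beside 43.4% of all genes, 21.7% in each direction. The contrasts between the Twist1 forms had the same scale. S42A against wild-type Twist1 gave 15 up and 10 down (40.0% of all genes called, 20.0% each way), S42D against wild-type Twist1 gave 15 up and 10 down (43.3%, with 20.7% higher and 22.6% lower), and S42D against S42A gave 13 up and 12 down (36.1%, with 17.1% higher and 19.1% lower).

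The median difference over the members was between -0.12 log2, in wild-type Twist1 against Tw1KD, and 0.10 log2, in S42A against wild-type Twist1, where the medians over all genes were -0.06 and 0.04 log2.

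The member shares lay above the shares over all genes, but most members are brighter than the typical probe set, and bright genes are called more often. A mean of at least 8 log2 was reached by 27 of the 34 members and by 8757 of the 19937 genes, a limit chosen after the values were seen. Set against genes that bright, the bright members were called less often in wild-type Twist1 against Tw1KD (66.7%, against 75.9% of bright genes) and at nearly the same share in S42D against wild-type Twist1 (74.1% and 74%) and in Tw1KD against parental cells (66.7% and 64.5%). Their share was higher in S42A against Tw1KD (88.9% and 73.2%), S42D against S42A (81.5% and 63.1%), S42D against Tw1KD (81.5% and 71.6%) and S42A against wild-type Twist1 (74.1% and 67.2%). These shares were not tested. Changes of at least 2-fold with no overlap between arrays were fewer. In the contrasts with Tw1KD they numbered 4 up and 3 down among the members in S42D (4.55% of all genes in either direction), 2 up and 3 down in S42A (4.84%), and 1 up and 3 down in wild-type Twist1 (4.84%). Tw1KD against parental cells had 1 up and 1 down (2.65%). Between the Twist1 forms there were 3 up and 2 down in S42D against wild-type Twist1 (4.82%), 2 up and 1 down in S42A against wild-type Twist1 (3.16%), and 2 up and 1 down in S42D against S42A (3.16%). Over the 7 comparisons 9 members (26.5%) had at least 1 such change, against 11.3% of all genes, and 7 members (20.6%) were called in every comparison, against 6.26% of all genes. Because the members were chosen with earlier results of these data known, these shares cannot show that the pathway differs from other genes. The same shares were not computed over bright genes alone. Of 262 calls over the 34 members and 10 comparisons, those against parental cells included, 31 were lost under at least 1 other processing choice or with 1 array left out, and none of those 31 exceeded 0.22 log2. Such calls are marked where their values are given.

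The re-expressing lines were also set against parental cells. In S42D against parental cells 11 members rose and 15 fell, where 37.0% of all genes were called, 19.8% higher and 17.2% lower, and changes of at least 2-fold numbered 1 up and 2 down (2.81% of all genes). In S42A 15 rose and 16 fell (40.3% of all genes, 22.6% higher and 17.7% lower), with 1 up and 1 down at 2-fold (3.52%). In wild-type Twist1 8 rose and 16 fell, or 5 and 18 after quantile normalization (49.0% of all genes, 25.0% higher and 24.0% lower), with 1 up and 2 down at 2-fold (4.36%).

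**Figure D1:**
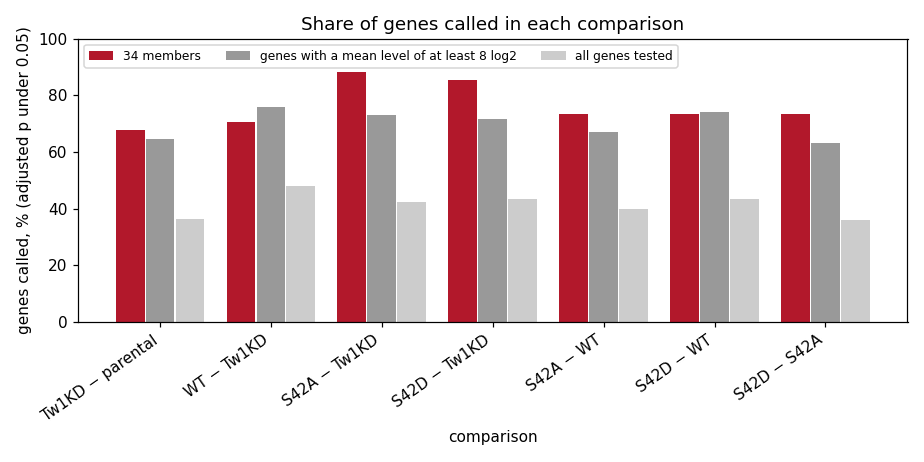
Percent of genes called at an adjusted p below 0.05 in each of the 7 main comparisons (horizontal axis, percent on the vertical axis), for the 34 pathway members, for the 8757 genes with a mean of at least 8 log2, and for all 19937 genes. The member bars lie above the bars for all genes in every comparison and, bright and dim members together, below the bar for bright genes in wild-type Twist1 against Tw1KD (70.6% and 75.9%) and in S42D against wild-type Twist1 (73.5% and 74%).

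**Figure D2:**
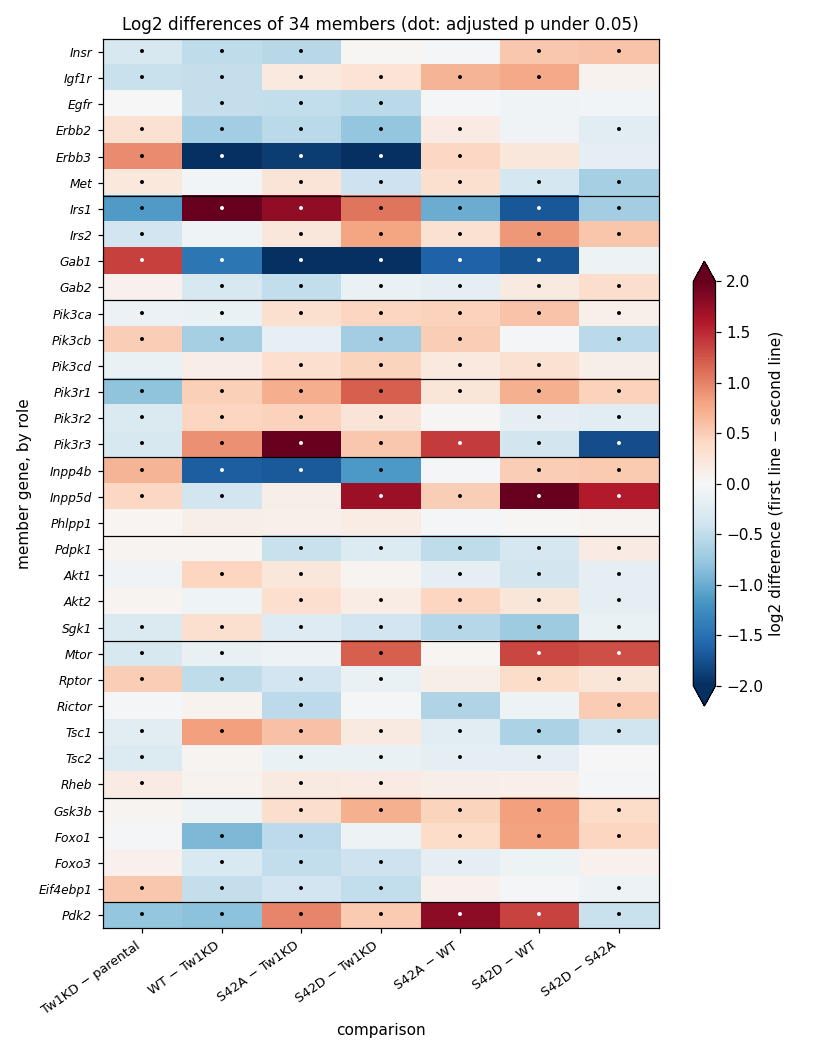
Log2 difference of every measured member (rows, ordered by role) in the 7 main comparisons (columns), as colour that saturates at 2 log2 in either direction. The strongest colours belong to 9 genes, Irs1, Gab1, Erbb3, Pik3r1, Pik3r3, Inpp4b, Inpp5d, Mtor and Pdk2, and no comparison moves all roles the same way.

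Among the receptors, Erbb3 had the largest differences. Erbb3, a receptor of the EGF receptor family with little kinase activity of its own that binds neuregulins and recruits PI3K directly, was read by probe set 10373467. It gave 6.75, 6.65 and 6.80 in S42D, 6.89, 6.90 and 6.97 in S42A, 6.56, 6.50 and 6.47 in wild-type Twist1, 8.82, 8.63 and 9.04 in Tw1KD and 7.93, 7.75 and 7.97 in parental cells. Every Tw1KD array was above every parental array, and all 9 arrays of the re-expressing lines were below both. The gain in Tw1KD against parental cells was 0.94 ± 0.086 log2 (adjusted p = 6.6e-07). Against Tw1KD, Erbb3 fell by 2.09 ± 0.086 log2 in S42D, by 1.90 ± 0.086 log2 in S42A and by 2.31 ± 0.086 log2 in wild-type Twist1 (adjusted p = 8.8e-11, 2.3e-10 and 3.6e-11). The re-expressing lines were near the array medians of 6.57 to 6.72, so these decreases may be compressed. S42A was 0.41 ± 0.086 log2 above wild-type Twist1 (adjusted p = 0.0014). The S42D line was 0.22 ± 0.086 log2 above wild-type Twist1, which was not called (adjusted p = 0.054, 95% interval 0.03 to 0.40) but was called in 5 of the alternative fits, among them one without the second S42D array.

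Erbb2, the ligandless partner of Erbb3, was also highest in Tw1KD, then in parental cells, at a smaller size. It averaged 8.71 in S42D, 8.94 in S42A, 8.78 in wild-type Twist1, 9.48 in Tw1KD and 9.18 in parental cells, and fell by 0.77, 0.54 and 0.70 log2 in the S42D, S42A and wild-type Twist1 lines against Tw1KD. Egfr, the founding receptor of this family, averaged 5.68, 5.74 and 5.75 in S42D, S42A and wild-type Twist1 cells, against 6.22 in Tw1KD, and 6.21 in parental cells. It fell in all 3 re-expressing lines against Tw1KD, by 0.55 ± 0.081 log2 in S42D (adjusted p = 5.6e-05), by 0.49 in S42A and by 0.47 in wild-type Twist1, at intensities close to the dim end of the array where differences are compressed. All 3 of these receptors were therefore lower in each re-expressing line than in Tw1KD. Of all genes, 21.7% fell in S42D, 19.7% in S42A and 24.5% in wild-type Twist1 against Tw1KD, and these comparisons share the Tw1KD arrays.

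The IGF1 receptor was higher in both mutants than with wild-type Twist1, and the insulin receptor was higher in S42D than in the other 2 re-expressing lines. Igf1r averaged 10.80 in S42D, 10.73 in S42A, 10.05 in wild-type Twist1, 10.53 in Tw1KD and 10.97 in parental cells. Against Tw1KD it rose in both mutants, by 0.27 log2 in S42D and by 0.20 log2 in S42A (adjusted p = 0.008), and fell by 0.48 ± 0.055 log2 in wild-type Twist1. The direct contrasts were 0.75 ± 0.055 log2 for S42D against wild-type Twist1 (adjusted p = 3.8e-08) and 0.68 ± 0.055 log2 for S42A against wild-type Twist1 (adjusted p = 1.7e-07). The mutants differed from each other by 0.07 log2, which was not called (95% interval -0.05 to 0.19). Insr averaged 10.41 ± 0.076 in S42D, 9.84 ± 0.048 in S42A, 9.88 ± 0.034 in wild-type Twist1, 10.40 ± 0.069 in Tw1KD and 10.71 ± 0.12 in parental cells (SD, n = 3 each). It was 0.57 ± 0.060 log2 higher in S42D than in S42A (adjusted p = 2.9e-06) and 0.53 log2 higher in S42D than in wild-type Twist1, and S42D differed from Tw1KD by only 0.02 log2 (95% interval -0.11 to 0.15). S42A and wild-type Twist1 differed by -0.04 log2 for Insr (95% interval -0.17 to 0.09). A second Insr probe set was also highest in parental cells.

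Met, the receptor of hepatocyte growth factor, moved in opposite directions in the mutants. Its means were 10.16 in S42D, 10.83 in S42A, 10.51 in wild-type Twist1, 10.57 in Tw1KD and 10.35 in parental cells. Against Tw1KD it fell by 0.41 log2 in S42D and rose by 0.26 log2 in S42A, and it was lower in S42D than in S42A (difference -0.67 ± 0.046 log2, adjusted p = 3.6e-08). Wild-type Twist1 against Tw1KD was not called for Met (difference -0.05 log2, adjusted p = 0.36).

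Irs1, a docking adaptor of the insulin and IGF1 receptors, and Gab1, a docking adaptor of the EGF and HGF receptors, had the largest differences of all members. Against Tw1KD they ran in opposite directions, Irs1 higher and Gab1 lower in all 3 re-expressing lines, whereas both were lower in each mutant than in wild-type Twist1. Irs1 (probe set 10356084) read 9.09, 9.04 and 9.02 in S42D, 9.73, 9.74 and 9.79 in S42A, 10.68, 10.79 and 10.74 in wild-type Twist1, 8.09, 7.85 and 7.98 in Tw1KD and 9.12, 9.01 and 9.19 in parental cells. Tw1KD was lowest, wild-type Twist1 highest, S42A between them, and S42D overlapped parental cells. Irs1 fell by 1.13 ± 0.061 log2 in Tw1KD against parental cells (adjusted p = 2.9e-09). Against Tw1KD it rose by 1.08 ± 0.061 log2 in S42D (adjusted p = 2.8e-09), by 1.78 ± 0.061 log2 in S42A (adjusted p = 1.2e-11) and by 2.77 ± 0.061 log2, or 6.8-fold, in wild-type Twist1 (adjusted p = 2.4e-13). Both mutants were below wild-type Twist1: S42D by a difference of -1.69 ± 0.061 log2 (adjusted p = 2.7e-11) and S42A by -0.99 ± 0.061 log2 (adjusted p = 1.1e-08). The S42D line was also below S42A (difference -0.70 ± 0.061 log2, adjusted p = 3.9e-07). S42D and parental cells differed by -0.06 log2 (95% interval -0.19 to 0.07). A second, dim Irs1 probe set with line means between 4.48 and 5.02 was likewise highest in wild-type Twist1 and lowest in Tw1KD. With the mean of both probe sets in its place, every Irs1 call was kept but the sizes were smaller by over 1.5 times: 0.60 log2 in S42D, 1.02 in S42A and 1.65 in wild-type Twist1 against Tw1KD, -0.63 in Tw1KD against parental cells, -1.05 in S42D and -0.64 in S42A against wild-type Twist1, and -0.41 in S42D against S42A.

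Twist1 and related helix-loop-helix factors bind a 6-base motif called the E-box, CANNTG, which reads as the same pattern on both strands. RefSeq promoter windows of GRCm38.p6, from 250 bases before to 50 bases after a listed start, were looked up for the 34 measured members only. They were available for 30 of these, and 26 of their 47 windows (55.3%) held the motif, against 72.3% of all 32851 windows. The E-box was thus no more frequent at these genes than elsewhere. Of the 9 members with a 2-fold change, 4 had exactly 1 listed start, and their 250 bases before it are printed, each with its gene and with every E-box in capitals, so that the letters stand beside the values. These matches are descriptions of the letters, not sites of binding. The Irs1 window lies on the minus strand at chr1:82291440-82291689 and holds 1 E-box, CACGTG, which begins 115 bases before the start:
Irs1: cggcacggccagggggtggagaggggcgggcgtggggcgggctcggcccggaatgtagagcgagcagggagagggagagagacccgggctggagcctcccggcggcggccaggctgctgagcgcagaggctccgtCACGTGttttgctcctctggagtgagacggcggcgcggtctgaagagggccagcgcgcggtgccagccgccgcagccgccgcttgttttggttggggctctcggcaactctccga

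Gab1 (probe set 10579925) gave 6.22, 5.98 and 6.37 in S42D, 6.53, 6.18 and 6.19 in S42A, 7.85, 8.01 and 7.88 in wild-type Twist1, 9.38, 9.24 and 9.44 in Tw1KD and 8.08, 7.85 and 8.04 in parental cells. Tw1KD was highest, wild-type Twist1 overlapped parental cells, and both mutants lay below all of these and overlapped each other. Tw1KD exceeded parental cells by 1.36 ± 0.11 log2 (adjusted p = 1.7e-07). Against Tw1KD, Gab1 was lower in S42D by a difference of -3.16 ± 0.11 log2 (adjusted p = 1.3e-11), in S42A by -3.05 ± 0.11 log2 (adjusted p = 1.8e-11) and in wild-type Twist1 by a difference of -1.44 ± 0.11 log2 (adjusted p = 5.2e-08). The mutants lay below wild-type Twist1 by differences of -1.72 ± 0.11 log2 for S42D (adjusted p = 7.9e-09) and -1.61 ± 0.11 log2 for S42A (adjusted p = 2.6e-08). Between the mutants the difference was -0.11 log2 and was not called (95% interval -0.34 to 0.12), and wild-type Twist1 was within -0.08 log2 of parental cells (95% interval -0.31 to 0.16). The mutant arrays were below the array medians of 6.57 to 6.72. Their decreases are therefore compressed, and a difference between the mutants could be missed there.

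The remaining adaptors changed less. Irs2, the second insulin receptor substrate here, averaged 9.45 ± 0.11 in S42D, 8.89 ± 0.004 in S42A, 8.58 in wild-type Twist1, 8.66 in Tw1KD and 9.05 in parental cells. It fell by 0.39 log2 in Tw1KD against parental cells, rose by 0.78 log2 in S42D and by 0.22 log2 in S42A against Tw1KD, and was 0.87 log2 higher in S42D than in wild-type Twist1 (adjusted p = 6.3e-09). Wild-type Twist1 against Tw1KD was not called for Irs2 (difference -0.09 log2, 95% interval -0.20 to 0.03), so Irs1 and Irs2 were highest in different lines. Gab2, the relative of Gab1, stayed between 8.99 in S42A and 9.49 in Tw1KD.

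**Figure D3:**
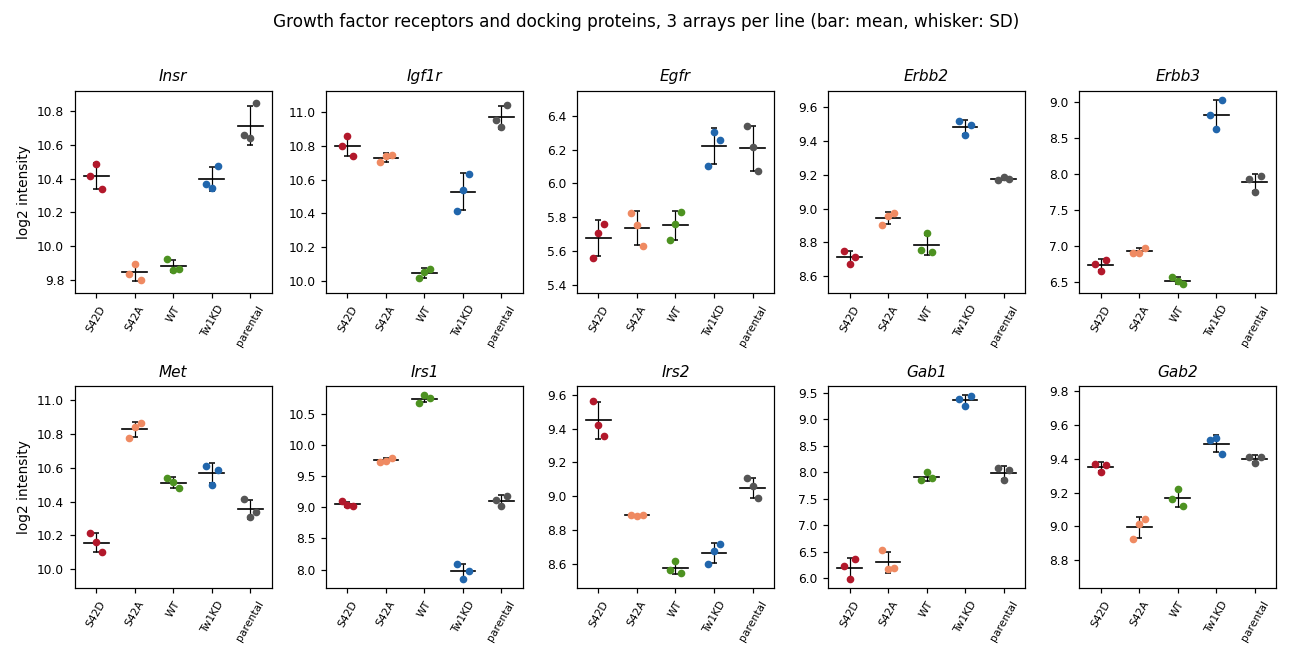
Log2 intensity of receptors and docking adaptors on each array (points), with the mean (bar) and SD (whisker) of 3 arrays per line, S42D leftmost and parental rightmost; each panel has its own axis, which does not start at 0. Irs1 is highest in wild-type Twist1 at 10.68 to 10.79, Gab1 and Erbb3 are highest in Tw1KD at 9.24 to 9.44 and 8.63 to 9.04, and Gab1 reaches only 5.98 to 6.53 in the 2 mutants.

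The regulatory subunits of PI3K, which bind phosphotyrosine and hold the catalytic subunit, were all lowest in the depleted line. All 3 measured subunits fell in Tw1KD against parental cells, where 16.4% of all genes fell. All 3 rose against Tw1KD in S42D, S42A and wild-type Twist1, where 21.7%, 22.8% and 23.5% of all genes rose. These comparisons share the Tw1KD arrays, so they are not separate results. In S42D against wild-type Twist1 the subunits split, 1 up and 2 down. Pik3r1 (probe set 10411782), which encodes p85-alpha and its shorter forms, read 10.85, 10.85 and 10.72 in S42D, 10.30, 10.37 and 10.34 in S42A, 10.16, 10.04 and 10.09 in wild-type Twist1, 9.64, 9.51 and 9.69 in Tw1KD and 10.40, 10.38 and 10.47 in parental cells. No array of any line overlapped another line, with S42D highest and Tw1KD lowest. Tw1KD was below parental cells by a difference of -0.80 ± 0.055 log2 (adjusted p = 3.4e-08). Against Tw1KD, Pik3r1 rose by 1.19 ± 0.055 log2 in S42D (adjusted p = 3.1e-10), by 0.72 ± 0.055 log2 in S42A (adjusted p = 5.8e-08) and by 0.48 ± 0.055 log2 in wild-type Twist1 (adjusted p = 3.6e-06). S42D was 0.47 ± 0.055 log2 above S42A (adjusted p = 8.3e-06) and 0.71 ± 0.055 log2 above wild-type Twist1 (adjusted p = 6.4e-08).

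Pik3r3 (probe set 10507273), which encodes the p55-gamma subunit, was instead highest in S42A. Its arrays read 6.06, 6.19 and 6.09 in S42D, 7.78, 8.06 and 7.81 in S42A, 6.39, 6.57 and 6.48 in wild-type Twist1, 5.49, 5.5 and 5.71 in Tw1KD and 5.80, 6.01 and 5.84 in parental cells. The 3 S42A arrays stood more than 1 log2 above every other array. Pik3r3 rose against Tw1KD by 2.32 ± 0.085 log2 in S42A (adjusted p = 2.7e-11), and by 0.91 ± 0.085 log2 in wild-type Twist1 (adjusted p = 4.6e-07). The gain was 0.55 ± 0.085 log2 in S42D (adjusted p = 9.2e-05). Tw1KD was at the dim end of the array, so these gains are compressed and no fold is given. S42A exceeded wild-type Twist1 by 1.40 ± 0.085 log2 (adjusted p = 8.9e-09), and S42D was below S42A (difference -1.77 ± 0.085 log2, adjusted p = 8e-10). Pik3r2, which encodes p85-beta, had a narrower range, from 8.89 in Tw1KD to 9.35 in S42A.

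The catalytic subunits did not share one pattern. Pik3ca, which encodes p110-alpha, averaged 11.33 in S42D, 11.22 in S42A, 10.76 in wild-type Twist1, 10.90 in Tw1KD and 11.02 in parental cells. It rose by 0.43 log2 in S42D and by 0.33 log2 in S42A against Tw1KD, and it was 0.57 ± 0.039 log2 higher in S42D than in wild-type Twist1 (adjusted p = 2.1e-08). The smaller Pik3ca decreases, -0.13 log2 in wild-type Twist1 against Tw1KD and -0.12 log2 in Tw1KD against parental cells, were both lost when arrays were centred on their medians (-0.08 and -0.07 log2), and the second was also lost without parental array 1 or 3 or Tw1KD array 1 or 2 (-0.11 log2 in each).

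Pik3cb, which encodes p110-beta, averaged 8.88 in S42D, 9.42 ± 0.12 in S42A, 8.92 in wild-type Twist1, 9.58 in Tw1KD and 9.08 in parental cells. It rose by 0.50 log2 in Tw1KD against parental cells and fell against Tw1KD by 0.70 ± 0.063 log2 in S42D (adjusted p = 3.3e-07) and by 0.66 ± 0.063 log2 in wild-type Twist1. S42A was 0.50 log2 above wild-type Twist1, and its difference from Tw1KD was not called (-0.16 log2, adjusted p = 0.053). It was called without S42A array 2 (-0.21 log2) or without Tw1KD array 1 (-0.19 log2). Pik3cd, which encodes p110-delta and is best known from leukocytes, averaged 7.14 in S42D, 7.02 in S42A, 6.82 in wild-type Twist1, 6.69 ± 0.18 in Tw1KD and 6.82 in parental cells.

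**Figure D4:**
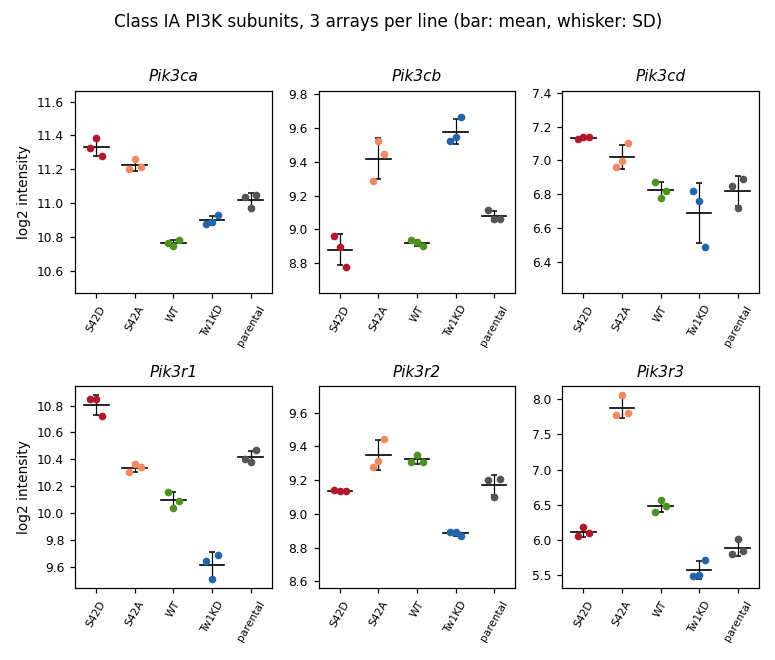
Log2 intensity of the 6 class IA PI3K subunits on each array (points), with the mean (bar) and SD (whisker) of 3 arrays per line, S42D leftmost and parental rightmost; each panel has its own axis, which does not start at 0. Pik3r1 is highest in S42D and lowest in Tw1KD with no overlap, and Pik3r3 is highest in S42A at 7.78 to 8.06.

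The lipid phosphatases Inpp5d and Inpp4b act on the lipids that PI3K produces. Both rose in Tw1KD against parental cells and both fell in wild-type Twist1 against Tw1KD, while in S42D against Tw1KD Inpp5d rose and Inpp4b fell. Inpp5d (probe set 10348244), which encodes the 5-phosphatase SHIP1, gave 9.04, 8.86 and 8.94 in S42D, 7.25, 7.49 and 7.33 in S42A, 6.88, 6.91 and 6.82 in wild-type Twist1, 7.26, 7.21 and 7.23 in Tw1KD and 6.82, 6.76 and 6.87 in parental cells. The S42D arrays stood apart, more than 1 log2 above every array of the other 4 lines. Inpp5d was 1.71 ± 0.061 log2, or 3.28-fold, higher in S42D than in Tw1KD (adjusted p = 1.8e-11), 2.08 ± 0.061 log2, or 4.22-fold, higher than in wild-type Twist1 (adjusted p = 3.5e-12), and 1.59 ± 0.061 log2 higher than in S42A (adjusted p = 6.4e-11). The wild-type Twist1 arrays were little above the array medians of 6.57 to 6.72, so the fold against that line may be compressed. Tw1KD exceeded parental cells by 0.42 ± 0.061 log2 (adjusted p = 6.3e-05) and S42A exceeded wild-type Twist1 by 0.49 ± 0.061 log2 (adjusted p = 1.3e-05). Wild-type Twist1 fell by 0.37 ± 0.061 log2 against Tw1KD (adjusted p = 0.00014), and S42A against Tw1KD was not called (difference 0.12 log2, adjusted p = 0.14), though it was called without S42A array 1 (0.17 log2).

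Inpp5d is best known as a gene of blood cells, so leukocyte markers were read beside it. Of 13 measured leukocyte markers, 1 averaged at least 8 log2 in S42D, 1 in S42A, 2 in wild-type Twist1, 2 in Tw1KD and 1 in parental cells, and these were Cd68 and, in wild-type Twist1 and Tw1KD, Cd14. Cd68, a gene of macrophage lysosomes, averaged 10.71 in S42D, 10.27 in S42A, 9.80 in wild-type Twist1, 10.38 in Tw1KD and 8.5 in parental cells, and it was called higher in S42D than in each other line, by 0.44 log2 over S42A, 0.91 over wild-type Twist1, 0.32 over Tw1KD and 2.21 over parental cells. Lyz2 was also called higher in S42D than in Tw1KD (0.39 log2), wild-type Twist1 (0.71 log2) and parental cells (0.65 log2), at line means of 5.74 or less, and was highest in S42A. Cd14 went the other way, with a difference of -1.14 log2 in S42D against Tw1KD. The leukocyte marker Ptprc averaged 5.11 in S42D and 5.23, 5.12, 5.13 and 5.19 in S42A, wild-type Twist1, Tw1KD and parental cells, near the dim end in each. Itgam and Adgre1 were likewise at or below 5.48 in every line. The summed linear intensity of the list was 2348 to 2487 in S42D, 2043 to 2137 in S42A, 1853 to 1858 in wild-type Twist1, 2264 to 2437 in Tw1KD and 1164 to 1172 in parental cells. Cd68, the brightest gene of the list in every line, weighs most in these sums. The part of Cd68, Lyz2 and the list in the Inpp5d result was not tested. The Inpp5d window at chr1:87620062-87620311, plus strand, holds 2 E-boxes, which begin 238 and 37 bases before the start:
Inpp5d: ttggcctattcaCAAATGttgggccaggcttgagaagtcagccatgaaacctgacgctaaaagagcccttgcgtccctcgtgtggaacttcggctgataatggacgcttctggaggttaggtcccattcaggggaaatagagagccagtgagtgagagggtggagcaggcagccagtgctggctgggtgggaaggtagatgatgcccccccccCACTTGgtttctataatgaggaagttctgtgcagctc

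Inpp4b (probe set 10573082), a 4-phosphatase that acts one step later, read 5.78, 5.77 and 5.77 in S42D, 5.39, 5.25 and 5.10 in S42A, 5.03, 5.38 and 5.43 in wild-type Twist1, 7.03, 6.78 and 6.96 in Tw1KD and 6.50, 6.02 and 6.19 in parental cells. Tw1KD lay above parental cells with no overlap, and all re-expressing arrays lay below both. Inpp4b rose by 0.68 ± 0.12 log2 in Tw1KD against parental cells (adjusted p = 0.00041). Against Tw1KD it fell by 1.15 ± 0.12 log2 in S42D, by 1.68 ± 0.12 log2 in S42A and by 1.65 ± 0.12 log2 in wild-type Twist1 (adjusted p = 2.1e-06, 4.1e-08 and 4.5e-08). S42D was 0.52 ± 0.12 log2 above S42A (adjusted p = 0.0033) and 0.49 ± 0.12 log2 above wild-type Twist1 (adjusted p = 0.004), while S42A and wild-type Twist1 differed by -0.03 log2 (95% interval -0.30 to 0.23). Values near 5.5 are at the dim end of the array, so these decreases are compressed. The Inpp4b window at chr8:81342312-81342561, plus strand, holds 2 E-boxes, which begin 217 and 190 bases before the start:
Inpp4b: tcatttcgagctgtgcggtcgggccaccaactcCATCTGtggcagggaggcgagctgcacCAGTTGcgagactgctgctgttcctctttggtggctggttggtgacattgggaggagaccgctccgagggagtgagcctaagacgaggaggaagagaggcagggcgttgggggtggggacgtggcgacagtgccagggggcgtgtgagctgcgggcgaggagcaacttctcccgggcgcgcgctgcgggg

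Phlpp1, a phosphatase that acts on Akt itself, had line means between 9.49 in parental cells and 9.68 in S42D and was not called in any of the 7 main comparisons.

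Akt1 and Akt2, the kinases at the centre of the pathway, varied by less than 0.5 log2 over the 5 lines. Akt1 averaged 12.08 in S42D, 12.25 in S42A, 12.45 in wild-type Twist1, 12.02 in Tw1KD and 12.10 in parental cells. It was 0.42 ± 0.036 log2 higher in wild-type Twist1 than in Tw1KD (adjusted p = 1.8e-07) and 0.23 log2 higher in S42A than in Tw1KD. S42D against Tw1KD was not called (difference 0.05 log2, adjusted p = 0.27). S42D was below wild-type Twist1 by a difference of -0.37 log2. Akt2 averaged 11.84 in S42D, 12.04 in S42A, 11.61 in wild-type Twist1, 11.70 in Tw1KD and 11.64 in parental cells, and rose by 0.34 ± 0.035 log2 in S42A against Tw1KD (adjusted p = 1.6e-06). Its 0.15 log2 gain in S42D against Tw1KD (adjusted p = 0.0032) was lost after quantile normalization (0.05 log2). The highest lines therefore differed: wild-type Twist1 for Akt1 and S42A for Akt2, which both Akt2 probe sets showed.

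Pdpk1, which phosphorylates the activation loop of Akt, averaged 11.21 in S42D, 11.04 in S42A, 11.54 in wild-type Twist1, 11.48 in Tw1KD and 11.42 in parental cells. It fell in both mutants against Tw1KD, by 0.27 log2 in S42D and by 0.44 log2 in S42A, and S42A was below wild-type Twist1 (difference -0.50 ± 0.038 log2, adjusted p = 9.1e-08). Sgk1, a kinase related to Akt that Pdpk1 and the Rictor complex also switch on, averaged 8.94 in S42D, 9.07 in S42A, 9.65 in wild-type Twist1, 9.33 in Tw1KD and 9.61 in parental cells. Against Tw1KD it fell by 0.39 log2 in S42D and by 0.26 log2 in S42A and rose by 0.32 log2 in wild-type Twist1. The differences from wild-type Twist1 were -0.70 ± 0.046 log2 in S42D (adjusted p = 1.2e-08) and -0.58 ± 0.046 log2 in S42A (adjusted p = 1.5e-07).

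Mtor, the kinase of both mTOR complexes, was raised in S42D alone among the re-expressing lines. Probe set 10510305 gave 10.84, 10.87 and 10.83 in S42D, 9.47, 9.57 and 9.61 in S42A, 9.55, 9.53 and 9.46 in wild-type Twist1, 9.59, 9.69 and 9.68 in Tw1KD and 9.99, 9.96 and 9.99 in parental cells. The S42D arrays were above parental cells, and parental cells were above the other 3 lines. Mtor rose in S42D by 1.19 ± 0.044 log2, or 2.28-fold, against Tw1KD (adjusted p = 2.6e-11). The direct differences were 1.29 ± 0.044 log2 for S42D against S42A (adjusted p = 1.8e-11) and 1.33 ± 0.044 log2 for S42D against wild-type Twist1 (adjusted p = 1e-11). Tw1KD fell by 0.32 ± 0.044 log2 against parental cells (adjusted p = 3e-05). In wild-type Twist1 against Tw1KD the difference of -0.14 log2 (adjusted p = 0.016) was lost without Tw1KD array 2 or wild-type Twist1 array 3 (-0.12 log2 in each), with median centring (-0.09 log2) and with only those lines in the fit. S42A against Tw1KD was not called (difference -0.10 log2, adjusted p = 0.079), but it was called without Tw1KD array 1 or without S42A array 3 (-0.13 log2 in each). The Mtor window at chr4:148448332-148448581, plus strand, holds no E-box in these letters:
Mtor: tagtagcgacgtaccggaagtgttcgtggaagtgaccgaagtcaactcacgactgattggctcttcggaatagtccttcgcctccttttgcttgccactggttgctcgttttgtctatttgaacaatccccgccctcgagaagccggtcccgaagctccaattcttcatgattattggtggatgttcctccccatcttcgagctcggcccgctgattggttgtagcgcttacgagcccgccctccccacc

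The subunits that define the complexes had smaller ranges over the lines than Mtor. With Mtor, both were higher in S42D than in S42A, and Rptor was also higher in S42D than in wild-type Twist1. Rictor averaged 10.67 in S42D, 10.17 in S42A, 10.77 in wild-type Twist1, 10.69 in Tw1KD and 10.72 in parental cells, and S42A was the line that stood apart. It fell by 0.52 log2 in S42A against Tw1KD, was lower there than in wild-type Twist1 (difference -0.60 ± 0.054 log2, adjusted p = 5.1e-07), and was 0.50 log2 higher in S42D than in S42A. Rptor averaged 9.86 in S42D, 9.61 in S42A, 9.49 in wild-type Twist1, 9.995 in Tw1KD and 9.51 in parental cells. It rose by 0.49 ± 0.045 log2 in Tw1KD against parental cells (adjusted p = 7.7e-07), fell by 0.50 log2 in wild-type Twist1 and by 0.38 log2 in S42A against Tw1KD, and was 0.36 log2 higher in S42D than in wild-type Twist1 and 0.24 log2 higher in S42D than in S42A.

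Tsc1 and Tsc2 form the complex that holds back the mTOR activator Rheb. Tsc1 averaged 9.46 in S42D, 9.86 in S42A, 10.09 in wild-type Twist1, 9.28 in Tw1KD and 9.49 in parental cells. It rose against Tw1KD by 0.18 log2 in S42D, by 0.58 log2 in S42A and by 0.81 ± 0.040 log2 in wild-type Twist1 (adjusted p = 6.1e-10), the same order of lines as Irs1. Both mutants were below wild-type Twist1, S42D by a difference of -0.63 log2 and S42A by -0.23 log2. Tsc2 ranged only from 10.24 in S42A to 10.65 in parental cells, and Rheb from 10.93 in parental cells to 11.27 in S42A.

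**Figure D5:**
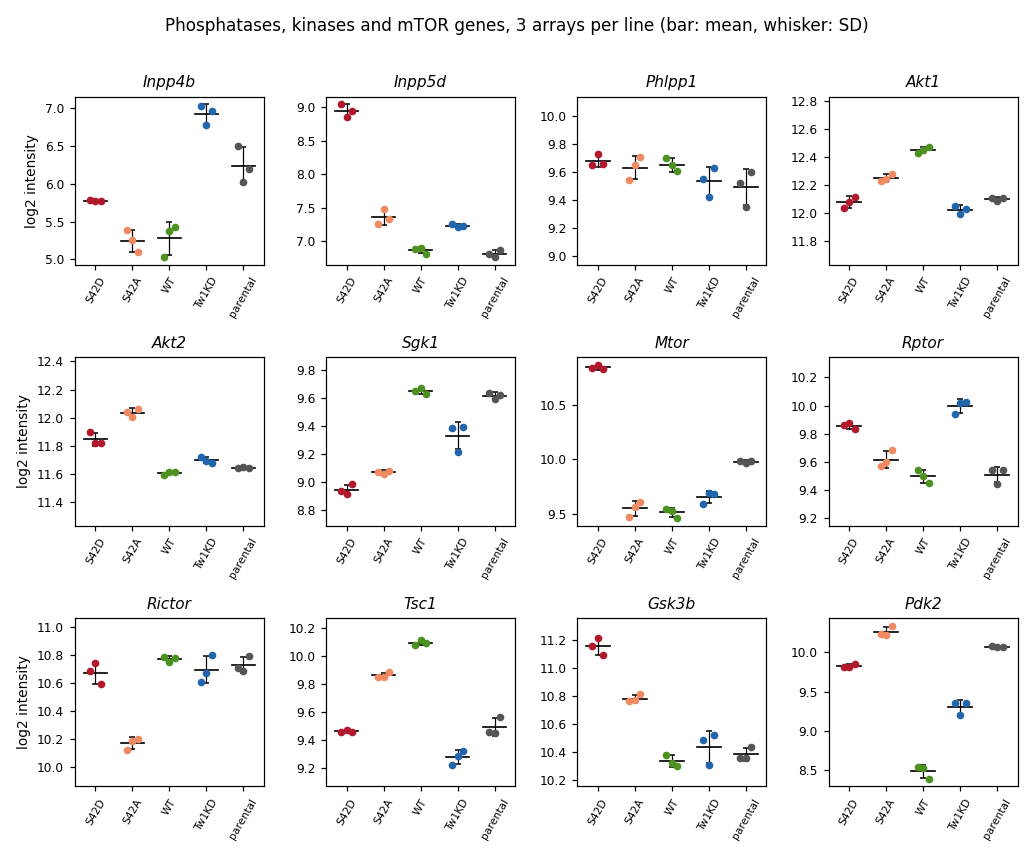
Log2 intensity of the phosphatases Inpp4b, Inpp5d and Phlpp1, the kinases Akt1, Akt2 and Sgk1, the mTOR genes Mtor, Rptor, Rictor and Tsc1, the target Gsk3b and the mitochondrial kinase Pdk2. Points are arrays, with the mean (bar) and SD (whisker) of 3 arrays per line, S42D leftmost and parental rightmost. Each panel has its own axis, which does not start at 0. Inpp5d and Mtor are highest in S42D at 8.86 to 9.04 and 10.83 to 10.87, and Pdk2 is lowest in wild-type Twist1 at 8.38 to 8.53.

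Among targets of the pathway, Gsk3b rose in both mutants against Tw1KD, Foxo3 fell in all 3 re-expressing lines, and Foxo1 fell in S42A and wild-type Twist1. Gsk3b, a kinase that Akt inhibits, averaged 11.16 in S42D, 10.78 in S42A, 10.34 in wild-type Twist1, 10.44 ± 0.12 in Tw1KD and 10.38 in parental cells. It was 0.82 ± 0.055 log2 higher in S42D than in wild-type Twist1 (adjusted p = 1.6e-08), 0.72 log2 higher in S42D than in Tw1KD and 0.45 log2 higher in S42A than in wild-type Twist1. Foxo1, a transcription factor that Akt keeps out of the nucleus, averaged 9.17 in S42D, 8.75 in S42A, 8.38 in wild-type Twist1, 9.27 in Tw1KD and 9.31 in parental cells. It fell by 0.90 ± 0.048 log2 in wild-type Twist1 against Tw1KD (adjusted p = 1.3e-09) and by 0.52 log2 in S42A, and S42D was not called against Tw1KD (difference -0.10 log2, adjusted p = 0.12). S42D was called there without S42D array 1 (-0.14 log2) and under 3 other settings.

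Foxo3, the related factor, averaged 9.21 ± 0.11 in S42D, 9.14 in S42A, 9.32 in wild-type Twist1, 9.62 in Tw1KD and 9.54 in parental cells. It fell against Tw1KD by 0.41 log2 in S42D, by 0.49 log2 in S42A and by 0.30 log2 in wild-type Twist1. Eif4ebp1, a repressor of translation that the Rptor complex inactivates, averaged 11.55 in S42D, 11.65 in S42A, 11.56 in wild-type Twist1, 12.04 in Tw1KD and 11.51 in parental cells. It rose by 0.53 ± 0.038 log2 in Tw1KD against parental cells (adjusted p = 5.3e-08) and fell by 0.49, 0.39 and 0.47 log2 in S42D, S42A and wild-type Twist1 against Tw1KD.

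Pdk2 in mouse is pyruvate dehydrogenase kinase 2, a mitochondrial enzyme, and not the Akt kinase once called PDK2. Probe set 10390103 read 9.81, 9.82 and 9.85 in S42D, 10.24, 10.22 and 10.34 in S42A, 8.53, 8.53 and 8.38 in wild-type Twist1, 9.35, 9.19 and 9.35 in Tw1KD and 10.08, 10.06 and 10.06 in parental cells. All 5 lines were separate, with wild-type Twist1 lowest and S42A highest. Pdk2 fell by 0.77 ± 0.053 log2 in Tw1KD against parental cells (adjusted p = 3.7e-08) and by a further 0.82 ± 0.053 log2 in wild-type Twist1 against Tw1KD (adjusted p = 1.1e-08). Both mutants rose against Tw1KD, S42D by 0.53 ± 0.053 log2 (adjusted p = 1.2e-06) and S42A by 0.97 ± 0.053 log2 (adjusted p = 1.9e-09). Against wild-type Twist1 the differences were 1.35 ± 0.053 log2 in S42D (adjusted p = 6.9e-11) and 1.79 ± 0.053 log2, or 3.45-fold, in S42A (adjusted p = 6e-12).

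Other genes of the same pathways were read from 4 lists. The shares of all genes called are repeated in parentheses as percent higher and percent lower. They are not matched for brightness: of genes with a mean of at least 8 log2, 63.1% to 75.9% were called in the 7 main comparisons. A list count above the share of all genes is therefore not a result about the list. These lists were also chosen with earlier results of these data known. Of 41 further core genes, 15 rose and 5 fell in Tw1KD against parental cells (19.9% and 16.4%), 7 and 17 in S42D against Tw1KD (21.7% and 21.7%), 11 and 15 in S42A against Tw1KD (22.8% and 19.7%), and 10 and 17 in wild-type Twist1 against Tw1KD (23.5% and 24.5%). S42D against wild-type Twist1 gave 10 up and 17 down (20.7% and 22.6%), S42A against wild-type Twist1 gave 13 and 13 (20.0% and 20.0%), and S42D against S42A gave 6 and 16 (17.1% and 19.1%). Their median difference lay between -0.10 and 0.07 log2 over the 7 comparisons. The core genes with the largest called differences were Pik3c2b, Sgk3, Sgk2 and Rhebl1. Pik3c2b, a class II PI3K, averaged 7.56 in S42D, 7.50 in S42A, 6.89 in wild-type Twist1, 8.53 in Tw1KD and 7.64 in parental cells, with a difference of -1.65 ± 0.059 log2 between wild-type Twist1 and Tw1KD. Sgk3 was lower than in Tw1KD by -1.60 log2 in S42D and -1.57 log2 in S42A, and Sgk2 was 1.53 log2 higher in Tw1KD than in parental cells. The Sgk2 arrays were highest in S42D, at 8.88 to 8.96, and lowest in parental cells, at 7.05 to 7.18. Rhebl1, a relative of Rheb, was highest in wild-type Twist1 at 7.54.

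Among 12 receptor ligands, 4 rose and 1 fell in Tw1KD against parental cells (19.9% and 16.4%), 1 rose and 5 fell in S42D against Tw1KD (21.7% and 21.7%), 2 and 3 in S42A against Tw1KD (22.8% and 19.7%), and 1 and 4 in wild-type Twist1 against Tw1KD (23.5% and 24.5%). S42D against wild-type Twist1 gave 4 up and 1 down (20.7% and 22.6%), S42A against wild-type Twist1 gave 3 and 1 (20.0% and 20.0%), and S42D against S42A gave 2 and 2 (17.1% and 19.1%), with medians between -0.14 and 0.05 log2. Nrg1, a neuregulin that binds Erbb3, averaged 9.51 in S42D, 9.05 in S42A, 8.26 in wild-type Twist1, 6.95 in Tw1KD and 8.96 in parental cells. It fell by 2.02 ± 0.097 log2 in Tw1KD against parental cells (adjusted p = 8.7e-10) and rose by 2.56 ± 0.097 log2 in S42D against Tw1KD (adjusted p = 3.7e-11), so it was lowest in the line where Erbb3 was highest. Btc and Hbegf, ligands of Egfr, were highest in Tw1KD at 8.64 and 11.55. Nrg2, another neuregulin, was highest in S42A at 8.51.

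Of 30 further receptors and adaptors, 4 rose and 8 fell in Tw1KD against parental cells (19.9% and 16.4%), 12 and 6 in S42D against Tw1KD (21.7% and 21.7%), 7 and 12 in S42A against Tw1KD (22.8% and 19.7%), and 8 and 11 in wild-type Twist1 against Tw1KD (23.5% and 24.5%). S42D against wild-type Twist1 gave 13 up and 2 down (20.7% and 22.6%), S42A against wild-type Twist1 gave 7 and 10 (20.0% and 20.0%), and S42D against S42A gave 12 and 5 (17.1% and 19.1%), with medians between -0.09 and 0.11 log2. Grb7, an adaptor that binds Erbb2 and Erbb3, averaged 8.85 in S42D, 6.76 in S42A, 8.59 in wild-type Twist1, 10.63 in Tw1KD and 9.88 in parental cells. It fell by 3.88 ± 0.048 log2 in S42A against Tw1KD (adjusted p = 1.1e-15). Lrig3, of a family of membrane proteins that bind receptor tyrosine kinases, was lowest in S42D at 6.06, against 9.13 in Tw1KD. Fgfr1, a fibroblast growth factor receptor, averaged 8.42 in S42D, 6.92 in S42A, 6.86 in wild-type Twist1, 6.77 in Tw1KD and 9.80 in parental cells. Of the 3 re-expressing lines, S42D alone had a called rise against Tw1KD, of 1.65 log2. The direct difference of Fgfr1 between S42D and S42A was 1.5 ± 0.074 log2 (adjusted p = 1.1e-09). Lrig3 in S42D was below the array medians of 6.57 to 6.72, so its difference from Tw1KD is compressed. Grb7 in S42A and Fgfr1 in S42A, wild-type Twist1 and Tw1KD were near those medians, so their differences may be compressed. Ddr1, a collagen receptor, was lower in S42D than in Tw1KD (difference -1.01 log2).

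Of 25 genes known as FoxO targets, 7 rose and 11 fell in Tw1KD against parental cells (19.9% and 16.4%), 8 and 9 in S42D against Tw1KD (21.7% and 21.7%), 9 and 9 in S42A against Tw1KD (22.8% and 19.7%), and 3 and 12 in wild-type Twist1 against Tw1KD (23.5% and 24.5%). S42D against wild-type Twist1 gave 9 up and 3 down (20.7% and 22.6%), S42A against wild-type Twist1 gave 11 and 5 (20.0% and 20.0%), and S42D against S42A gave 5 and 3 (17.1% and 19.1%), with medians between -0.13 and 0.13 log2. Sesn3, a sestrin that restrains mTOR signalling, averaged 11.93 in S42D, 11.31 in S42A, 10.004 in wild-type Twist1, 8.71 in Tw1KD and 9.86 in parental cells, and rose by 3.22 ± 0.067 log2, or 9.31-fold, in S42D against Tw1KD (adjusted p = 7.1e-14). Fbxo32, an F-box protein of muscle wasting, was lowest in wild-type Twist1 at 7.59 and 1.88 ± 0.076 log2 higher in S42D (adjusted p = 9e-11). Tnfsf10, the death ligand TRAIL, was 1.73 ± 0.13 log2 higher in S42A than in wild-type Twist1 (adjusted p = 9.2e-08). Its wild-type Twist1 arrays read 5.22, 5.14 and 5.15, at the dim end of the array, so this difference is compressed. Txnip, a regulator of glucose uptake, fell by 1.53 ± 0.036 log2 in S42A against Tw1KD (adjusted p = 2.6e-13).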

How the data were processed

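RNA of 5 lines of 4T1 cells, 3 samples each, was hybridised to Affymetrix arrays. Per the labels' protocols, total RNA was purified with RNeasy columns and 100 ng was labelled with biotin after Ambion WT amplification. The authors deposited log2 intensities, 1 value for each of 34760 probe sets and array. R 2.10.0 and affy are named in the submitters' processing notes, without a role. The background correction, normalization and summary are not given in the sources used here. Array medians lay between 6.57 and 6.72 log2, and the number of arrays limits the precision.

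Probe sets were named through the platform's gene table: 21640 have 1 gene symbol, 1321 have several and 11799 have none, and 21553 of the first kind were matched to RefSeq by gene ID. The brightest probe set per gene, by its mean over all 15 arrays, gave 19937 genes. The members and the other gene lists were chosen with earlier results of these data known. A linear model with a mean for each line was fitted to all genes with limma 3.58.1 under R 4.3.3 (lmFit, eBayes), two-sided, with Benjamini-Hochberg adjustment over all genes within each of 7 main comparisons and 3 further ones against parental cells, at a threshold of 0.05. The scripts were tested on simulated data. Members with a called, non-overlapping difference of at least 1 log2 in a main comparison have every array's value in the text. Those reaching 0.5 log2 have line means, the rest ranges, with Akt1, Akt2, Pik3ca, Pik3r1, Mtor, Gsk3b and Foxo3 named in any case. Each other list has at most 4 genes named, by the size of the called difference. Alternatives were median centring, quantile normalization, the mean over probe sets, a filter on genes under 5.5 log2, a fit of only the lines compared, a replicate block, array weights, an intensity trend with a robust prior, and leaving out each array in turn. Probe sets shared between genes were left out. Comparisons that share Tw1KD or parental arrays are not independent.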

Additional observations from a re-analysis of the deposited data

Results flagged for a closer look

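Several members moved in opposite directions against Tw1KD in a pair of re-expressing lines, and in each case the direct difference between those lines was called in the same limma fit. These contrasts share the Tw1KD arrays, and no explanation was tested.

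In S42D against wild-type Twist1, the direct differences were 2.08 log2 for Inpp5d, 1.35 log2 for Pdk2, 1.33 log2 for Mtor, 0.75 log2 for Igf1r, 0.57 log2 for Pik3ca and -0.70 log2 for Sgk1. The first 5 genes rose in S42D and fell in wild-type Twist1 against Tw1KD, and Sgk1 did the reverse. The decreases of Mtor and Pik3ca in wild-type Twist1, -0.14 and -0.13 log2, are among the calls lost under other settings, so their opposite sign rests on small differences.

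In S42A against wild-type Twist1, the direct differences were 1.79 log2 for Pdk2, 0.68 log2 for Igf1r, 0.46 log2 for Pik3ca and -0.58 log2 for Sgk1, with the same directions against Tw1KD as in S42D. Between the mutants, Met fell in S42D and rose in S42A against Tw1KD, with a direct difference of -0.67 log2.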

How the results depend on the processing

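The count of members called in each comparison stayed within 1.5 times its value under every alternative run, and none of 4760 recomputed member differences reversed a call. Of the 262 member calls, 231 were kept under every alternative. The other 31 are all at most 0.22 log2, whereas all 199 calls of at least 0.25 log2 were kept. Of the called main differences of at least 0.25 log2, those of Irs1 alone moved by over 1.5 times, with the mean over its probe sets (1.65 log2 in wild-type Twist1 against Tw1KD, where the brightest probe set gave 2.77). Over the recomputed differences 128 lost their call and 84 gained one. With each array left out in turn, 26 to 29 members were called in S42D against Tw1KD, 30 to 32 in S42A against Tw1KD, 23 to 25 in wild-type Twist1 against Tw1KD, 21 to 22 in Tw1KD against parental cells, 25 to 26 in S42D against wild-type Twist1, 23 to 24 in S42A against wild-type Twist1 and 22 to 24 in S42D against S42A. Median centring moved the share of all called genes that were higher by over 10 points: in S42D against Tw1KD to 39.5% (49.98% as deposited), in S42D against wild-type Twist1 to 33.2% (47.9%), in S42D against S42A to 30.0% (47.2%) in Tw1KD against parental cells to 65.2% (54.8%), in S42A against parental cells to 71.7% (56.1%) and in wild-type Twist1 against parental cells to 68.4% (51.0%). It also moved the median of all genes in S42D against S42A to -0.11 log2. The members' own split moved by under 10 points in the 7 main comparisons.

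Samples of different lines share replicate numbers, and a check for pairing by number gave no consistent result. Deviations of same-numbered arrays correlated between -0.39 and 0.42 over 30 pairs, and in 0 of 10 comparisons were all pairs over 0.1. In 9 of 30 cases an array correlated best with its own number. Arrays 2 and 3 of Tw1KD and parental cells were among these, at 0.39 and 0.42. With 3 arrays per line the deviations depend on each other, so the check cannot settle whether samples were paired. With the replicate number as a block, 29 members were called in S42D against Tw1KD, 30 in S42A against Tw1KD, 24 in wild-type Twist1 against Tw1KD, 23 in Tw1KD against parental cells, 26 in S42D against wild-type Twist1, 24 in S42A against wild-type Twist1 and 23 in S42D against S42A. Dim members (Egfr, Inpp4b, Pik3r3, Gab1 in the mutants) have compressed differences, and those of Erbb3 may also be compressed.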

Other observations

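Among the marker genes read to check the cells, Cdh5, the cadherin of endothelial junctions, averaged 10.67 log2 in S42D, 7.26 in S42A, 6.35 in wild-type Twist1, 5.99 in Tw1KD and 5.66 in parental cells. The difference was 4.68 ± 0.087 log2 for S42D against Tw1KD (limma, adjusted p = 2.5e-14) and 3.41 ± 0.087 log2 for S42D against S42A (adjusted p = 8.1e-13). Tw1KD and parental cells were near the dim end of the array, where differences are compressed, so no fold is given. The other endothelial markers did not follow: Pecam1 averaged 5.52 in S42D and between 5.53 and 5.60 in the other lines, and Kdr averaged 5.23 in S42D and between 5.29 and 5.39 elsewhere. Cdh1, the epithelial cadherin, averaged 7.50 in S42D, 6.34 in S42A, 8.52 in wild-type Twist1, 11.46 in Tw1KD and 10.31 in parental cells, and Epcam averaged 5.63, 5.55 and 5.66 in the re-expressing lines, 9.76 in Tw1KD and 8.36 in parental cells.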
